A study of Mus musculus with 6 samples.

Results

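Cyclins, cyclin-dependent kinases (CDKs) and CDK inhibitors were examined in germinal centre B cells with and without floxed Basp1. The members were all genes of the deposited tables whose symbol began with Cdk or Cdkn and a digit, or with Ccn and a letter, and 65 of the 23420 listed genes matched. They fell into 4 classes: 23 genes of the cell cycle engine, 13 of transcription, 18 other CDKs and cyclins (among them the pseudogene Cdk3-ps), and 11 that matched by name only, such as Cdk5rap1 or Ccndbp1, which encode partners or unrelated proteins. The transcription class was Cdk7, Cdk8, Cdk9, Cdk12, Cdk13, Cdk19, Ccnt1, Ccnt2, Ccnk, Ccnl1, Ccnl2, Ccnh and Ccnc. Of the 65 members 53 had a mean level of at least 1 CPM (read counts scaled to a common library total) over all libraries and were tested: 19 of the cell cycle, 13 of transcription, 12 of the other CDKs and cyclins and 9 matched by name only.

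Messenger RNA had been sequenced from germinal centre B cells sorted from spleen on day 10 after mice received NP-KLH, a hapten on a carrier protein. The KO group was BASP1 fl/fl hCD20TamCre+/- and the WT group BASP1 +/+ hCD20TamCre+/-, with 3 libraries each. All mice carried the Cre recombinase, which the human CD20 promoter directs to B cells and tamoxifen activates, and all received 1 mg tamoxifen on day 5, day 7 and day 9, so Cre and tamoxifen did not differ between the groups, while the floxed alleles were in KO alone. The age of the mice and whether cells of several mice were pooled are not given in the sources used here, and p-values therefore measure spread between these libraries, which may be technical. In sorted bulk cells, fewer cells of a type and less RNA per cell cannot be told apart.

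CDKs are protein kinases, and most of them work only when bound to a cyclin. D-type cyclins with CDK4 or CDK6 start the inactivation of the retinoblastoma protein in G1, cyclin E with CDK2 completes it and opens S phase, and cyclins A and B with CDK2 and CDK1 carry the cell through S phase, G2 and mitosis. A separate branch of the family acts on RNA polymerase II: CDK7 with cyclin H initiates, CDK9 with cyclin T releases paused polymerase, CDK12 and CDK13 with cyclin K sustain elongation, and CDK8 or CDK19 with cyclin C sits in the Mediator complex. Germinal centre B cells are among the fastest dividing mammalian cells, and cyclin D3 is known as the D-type cyclin on which their expansion depends.

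Every library listed the same genes, with values on the log2 CPM scale that summed to between 997617 and 1000513 CPM per library. Their read depth is unknown. For every gene the WT and KO values of 1 replicate number had the same sum for all 3 numbers, to within 0.001, so that each gene holds a mean and 3 paired differences, and the SDs of WT and KO are equal by construction. Basp1, the floxed gene, lay at 5.49, 5.89 and 5.53 log2 CPM in WT and at 3.27, 2.86 and 3.23 in KO. All 6 B cell markers and all 8 germinal centre markers looked at lay above 1 CPM, from 7.31 CPM for Pax5 to 2783 CPM for Ms4a1. Of 7 T cell markers and 4 natural killer cell markers none reached 1 CPM, Cd3e and Klrd1 lay in all libraries at -5.063 log2 CPM, the value that 8492 genes share in all 6, and each of these lists summed to between 0.23 and 1.30 CPM per library.

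The levels of the cell cycle members, given first per transcript length, showed 1 dominant gene in each of several families. Per kb of merged exons (GENCODE M21) Ccnd3 lay at 292 CPM per kb (range over the 6 libraries 280 to 304), Ccnd2 at 2.86 (1.92 to 4.28) and Ccnd1 at 0.426 (0.348 to 0.520). Within single libraries Ccnd3, the D-type cyclin of germinal centres, was thus 68.1 to 152 times as high as Ccnd2 and 585 to 803 times as high as Ccnd1. Of the G1 kinases Cdk4 lay at 202 CPM per kb (196 to 207) and Cdk6 at 1.09 (0.996 to 1.20), a ratio within libraries of 166 to 205. These ratios rest in part on length, with 11525 bases of merged exons for Cdk6, 2053 for Cdk4, 6711 for Ccnd2 and 2447 for Ccnd3. Not divided by length, Cdk4 lay at 414 CPM and Cdk6 at 12.6, and Ccnd3 at 714 and Ccnd2 at 19.2. Of the cyclins of mitosis Ccnb2 lay at 298 CPM per kb (290 to 305), Ccnb1 at 148 (136 to 160), and the S phase and G2 cyclin Ccna2 at 113 (111 to 116). The ranges of Ccnb2 and Ccnd3 overlapped, so their order was not resolved, whereas Ccnb1 and Ccna2 did not overlap with each other or with those above them. Differences between replicate numbers are absent from the deposited values. The ranges and ratios given here and below therefore do not hold the full spread between libraries, and a lack of overlap does not settle an order. Below these cyclins came Ccnf (39.1 CPM per kb), Ccne1 (30.2) and Ccne2 (19.2), whose ranges did not overlap. The germline cyclins Ccna1 and Ccnb3 lay at that shared low value of -5.063 in all 6 libraries.

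The inhibitors were as uneven. Cdkn2d, which encodes the CDK4 and CDK6 inhibitor p19, lay at 72.4 CPM per kb (68.7 to 76.2) and its relative Cdkn2c (p18) at 19.7 (17.9 to 21.7). The inhibitors of the other family were low: Cdkn1a (p21) at 2.90 CPM per kb, Cdkn1c (p57) at 1.34 and Cdkn1b (p27, which holds resting lymphocytes out of the cycle) at 0.427. Within single libraries Cdkn2d was per kb 147 to 195 times as high as Cdkn1b. Not divided by length, they lay at 107 and 1.94 CPM. The tumour suppressor locus genes Cdkn2b and Cdkn2a lay below 1 CPM and were not tested. Cdkn3, a phosphatase that acts on CDKs, lay at 61.0 CPM per kb, with a range (59.6 to 62.5) inside that of Cdk2 (59.2 to 66.8), while Cdk1 was lower than Cdk2 in every library (44.0 to 48.3).

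**Figure D1:**
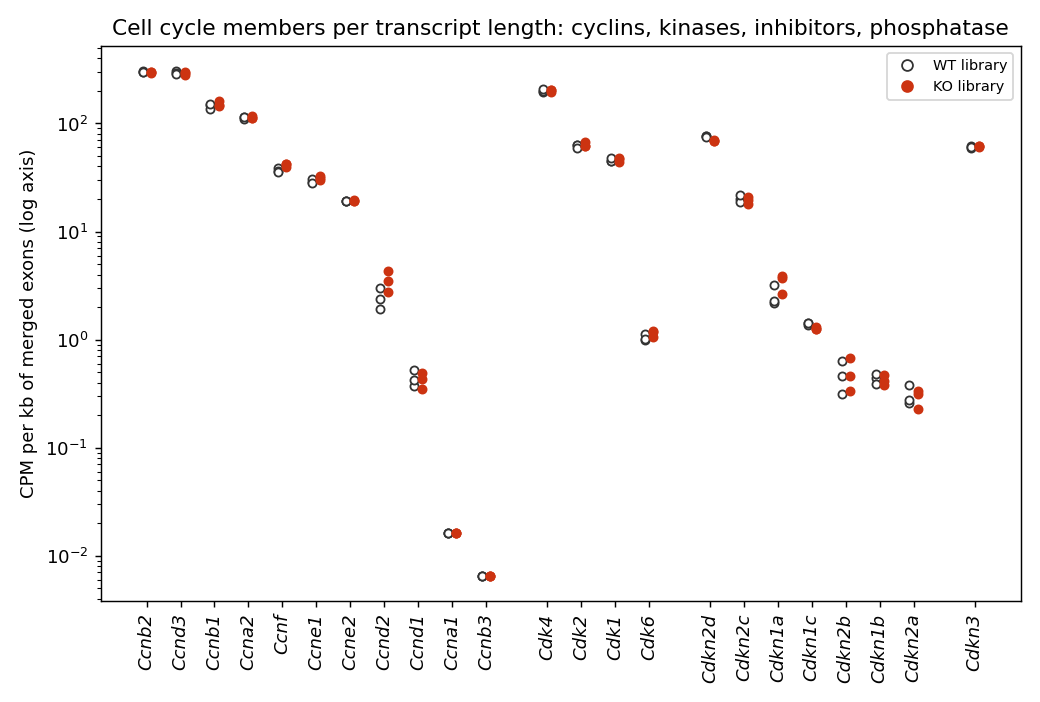
Level of the 23 cell cycle members in CPM per kb of merged exons, on a log axis, with 3 WT libraries (open circles) and 3 KO libraries (filled circles) per gene, ordered within cyclins, kinases, inhibitors and the phosphatase. Ccnb2 and Ccnd3 head the cyclins near 300 CPM per kb, Cdk4 the kinases at 202 and Cdkn2d the inhibitors at 72.4, and WT and KO circles lie close together for all of them.

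The transcription members ran from 0.777 CPM per kb for Cdk13 to 114 for Cdk9. Cdk9, the kinase that releases paused polymerase, had a range of 111 to 117 over the libraries, and below it lay Ccnh at 48.1, Ccnl2 at 30.2, Cdk7 at 26.5, Ccnl1 at 21.0 and Ccnc at 19.1. The elongation kinases, their cyclin and Cdk8 were lowest, with Cdk12 at 1.91 CPM per kb (1.73 to 2.11), Cdk8 at 1.49 (1.25 to 1.77), Ccnk at 1.04 (0.893 to 1.21) and Cdk13 at 0.777 (0.543 to 1.11). Of these 4, each overlapped in range with its neighbour in the order except Ccnk with Cdk8. Merged exons count every annotated exon, including long untranslated ends, so a gene with 12843 bases such as Cdk13 would be set low if cells used a shorter form, which was not tested.

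The promoters of 4 members are shown as examples with and without sequence elements tied to cell cycle transcription. Windows from 250 bases before to 50 bases after the RefSeq start (GRCm38.p6) were listed for 53 of the 65 members, as 59 windows. These are not the 53 tested members. Of the cell cycle and transcription classes, the tested Ccna2, Ccnd1, Ccnd2, Ccne2, Cdkn1c, Ccnh and Cdk19 had no window. The untested Ccna1, Ccnb3, Cdkn2a and Cdkn2b did, with Cdkn2a among the E2F windows and Cdkn2b among the TTTGAA windows counted below. In the windows below, capitals mark TTTGAA (the core of the cell cycle homology region, CHR), CCAAT, and the E2F site variants TTTCCCGC, TTTGGCGC, TTTCGCGC and TTTGCCGC, each searched on both strands, and no motif contains another. Cdk1 (chr10:69352863-69353162, minus strand) and Ccnb2 (chr9:70421505-70421804, minus strand) are the mitotic kinase and a cyclin that binds it, and Cdk13 (chr13:17805048-17805347, minus strand) and Ccnl1 (chr3:65958200-65958499, minus strand) are the transcription members that were furthest below WT in KO.
Cdk1: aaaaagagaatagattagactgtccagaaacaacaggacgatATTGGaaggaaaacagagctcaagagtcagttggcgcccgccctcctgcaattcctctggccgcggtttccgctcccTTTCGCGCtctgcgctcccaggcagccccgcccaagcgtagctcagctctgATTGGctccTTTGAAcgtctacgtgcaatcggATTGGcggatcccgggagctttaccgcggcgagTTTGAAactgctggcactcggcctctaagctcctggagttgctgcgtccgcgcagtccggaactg
Ccnb2: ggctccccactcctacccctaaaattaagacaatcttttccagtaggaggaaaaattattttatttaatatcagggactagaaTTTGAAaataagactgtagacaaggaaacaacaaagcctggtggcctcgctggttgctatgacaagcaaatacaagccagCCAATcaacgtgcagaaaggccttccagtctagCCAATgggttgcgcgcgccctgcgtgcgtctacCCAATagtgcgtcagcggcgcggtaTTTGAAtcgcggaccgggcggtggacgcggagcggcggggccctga
Cdk13: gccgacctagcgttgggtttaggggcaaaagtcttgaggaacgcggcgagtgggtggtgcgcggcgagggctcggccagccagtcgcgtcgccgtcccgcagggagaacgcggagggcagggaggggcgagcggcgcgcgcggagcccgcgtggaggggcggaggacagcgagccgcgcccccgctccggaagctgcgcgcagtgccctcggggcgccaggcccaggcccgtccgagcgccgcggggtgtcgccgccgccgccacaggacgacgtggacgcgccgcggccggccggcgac
Ccnl1: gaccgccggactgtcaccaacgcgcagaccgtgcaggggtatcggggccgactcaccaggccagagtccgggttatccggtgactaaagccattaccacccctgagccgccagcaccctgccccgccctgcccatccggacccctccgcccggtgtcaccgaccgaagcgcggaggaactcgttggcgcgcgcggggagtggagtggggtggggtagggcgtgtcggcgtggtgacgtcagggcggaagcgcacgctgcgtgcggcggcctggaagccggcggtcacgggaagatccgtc
The Cdk1 window held TTTGAA 71 and 15 bases upstream of the start, 3 CCAAT boxes and an E2F variant 131 bases upstream. Ccnb2 held TTTGAA 167 bases upstream and 4 bases downstream, and 3 CCAAT boxes 87, 54 and 21 bases upstream. None of the searched letters occurred in the Cdk13 and Ccnl1 windows. The same was true of other windows in both classes, among them Cdk4, Cdk6 and Ccne1 of the cell cycle and Cdk7, Cdk8, Cdk12 and Ccnt1 of transcription. TTTGAA was found in 5 of 22 cell cycle windows (22.7%) and 0 of 11 transcription windows, against 17.9% of all 32851 windows in the table. The share of TTTGAA in the cell cycle windows was thus near that of all windows. CCAAT was found in 12 of 22 (54.5%) and 5 of 11 (45.5%), against 37.4%, and an E2F variant in 3 of 22 (13.6%) and 0 of 11, against 2.26%. The match of letters is a description and not a test of binding.

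KO was compared with WT to ask whether transcripts of this family differed between germinal centre B cells with floxed and with intact Basp1. Among the 53 tested members Cdk13 was the 1 gene that passed a false discovery rate (FDR) of 5% in limma, a linear model with genotype and replicate number as terms, and it fell. None of the other 52 members passed. Over all 10133 genes tested, 27 passed (0.266%), and 10 of these fell (0.0987%). At an unadjusted p under 0.05 there were 8 of 53 members, against 8.82% of all genes, of which 6 were higher in KO (4.16% of all genes) and 2 lower (4.66%). Libraries of the groups did not overlap for 12 of the 53 members (22.6%), against 27.7% of all genes, with 6 members higher and 6 lower. Because each gene has the same pair sum for all 3 numbers, a lack of overlap means only that its 3 paired differences share a sign. Here and below it is no further separation of the libraries.

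**Figure D2:**
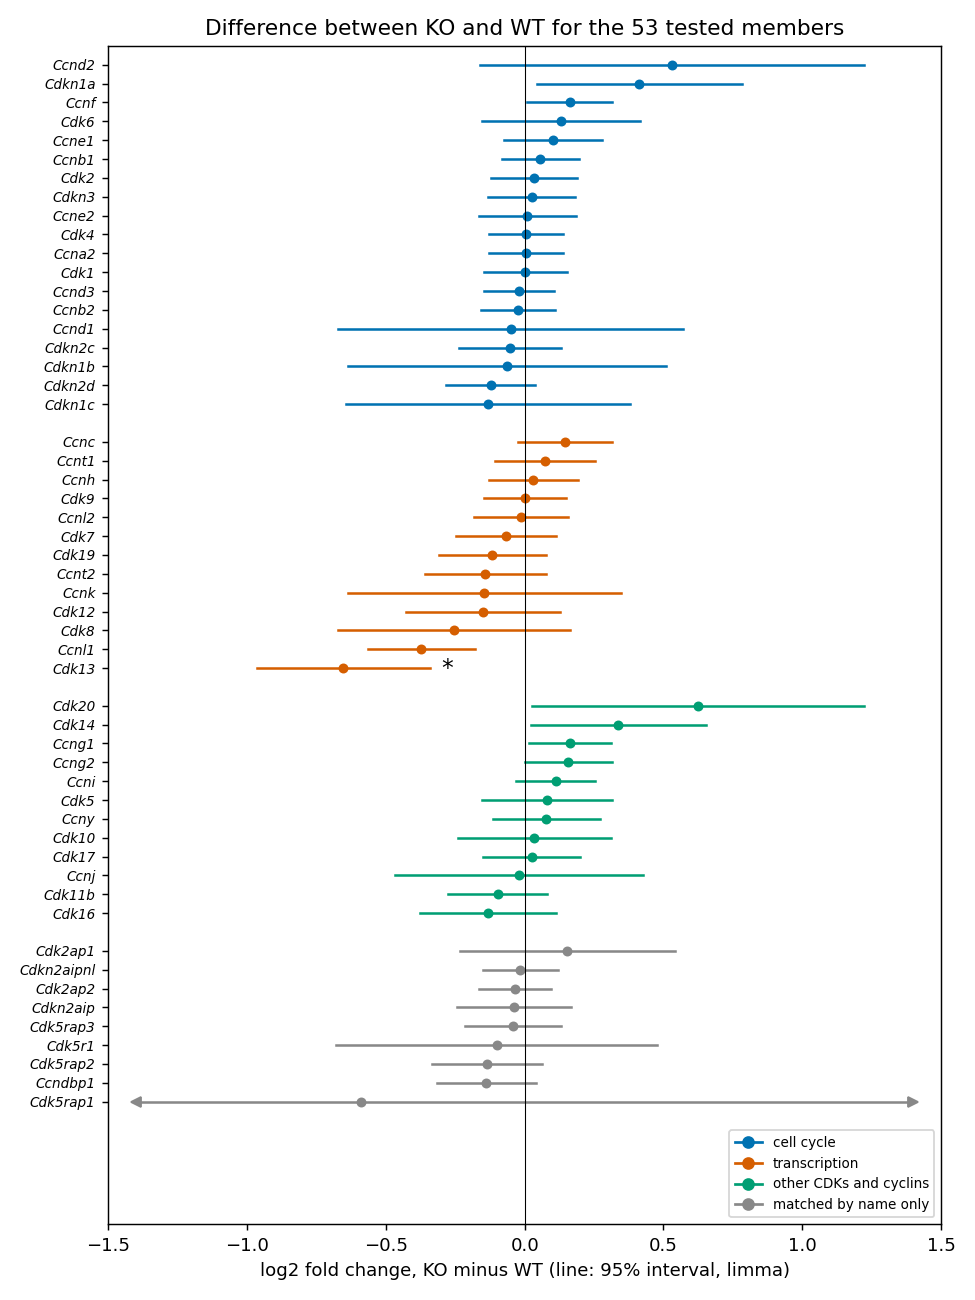
Log2 fold change (KO minus WT) of the 53 tested members with its 95% interval from limma, ordered within the 4 classes; the asterisk marks an adjusted p under 0.05 and arrowheads mark intervals that run past the axis. Cdk13 at -0.65 carries the asterisk, Ccnl1 at -0.37 lies next to it, and the intervals of the abundant cell cycle genes are narrow around 0.

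Cdk13 encodes a kinase of transcription elongation that pairs with cyclin K (chromosome 13, 17710315 to 17805097, minus strand, GRCm38). Its level was 3.51, 3.83 and 3.59 log2 CPM in WT and 3.12, 2.80 and 3.05 in KO. All 3 KO libraries lay below all 3 WT libraries. The group means were 12.5 CPM in WT and 7.95 CPM in KO, and the log2 fold change was -0.65 ± 0.34 (SD, n = 3 pairs; 95% interval -0.97 to -0.34; limma adjusted p = 0.0367). From pair 1 to pair 3 KO minus WT was -0.391, -1.03 and -0.535, so pair 2 differed most. Without pair 2 the fold change was -0.46 and the limma adjusted p 0.889, and with the trend over transcript length removed it was -0.61 with an adjusted p of 0.293. Over the alternatives tried the adjusted p ran from 0.00961 to 0.889.

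The nearest relative and the partner of Cdk13 were lower by less. Cdk12 lay at 3.84, 3.88 and 3.71 log2 CPM in WT and 3.63, 3.60 and 3.76 in KO, with KO above WT in pair 3 and a log2 fold change of -0.15 ± 0.18 (95% interval -0.43 to 0.13). Ccnk, the cyclin of both kinases, differed by -0.14 ± 0.39, with a wide interval from -0.64 to 0.35 at a level near 3 CPM. The difference between the fold changes of Cdk13 and Cdk12 was not tested.

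Ccnl1 encodes cyclin L1, a partner of CDK11 in RNA processing. It lay at 5.63, 5.85 and 5.60 log2 CPM in WT and 5.39, 5.17 and 5.41 in KO, with every KO library below every WT library. The log2 fold change was -0.37 ± 0.27 (SD, n = 3 pairs; 95% interval -0.56 to -0.18), which did not pass over all genes (limma adjusted p = 0.0635). When low genes were kept in the fit it did pass (limma adjusted p = 0.0346), as it did without pair 1 (0.0336) and without pair 3 (0.0430), while without pair 2 it was -0.22. Its paralog Ccnl2 showed a flat pattern, at 6.21, 6.24 and 6.19 log2 CPM in WT and 6.20, 6.17 and 6.22 in KO, and differed by -0.01 ± 0.05. Cdk11b, the kinase that L-type cyclins bind, differed by -0.10 ± 0.10. In the annotation 20.4% of the Ccnl1 exons overlap with Gm37305 on the other strand, and reads of the overlap cannot be told apart where counting ignores strand.

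The CDK of pause release and its cyclins gave no call in either direction. Cdk9 lay between 7.64 and 7.71 log2 CPM in both groups and differed by 0.00 ± 0.07, with a 95% interval from -0.14 to 0.15. Ccnt1 differed by 0.07 ± 0.18 and Ccnt2 by -0.14 ± 0.20. The kinase of initiation, Cdk7, differed by -0.07 ± 0.14 and its cyclin Ccnh by 0.03 ± 0.16. In the kinase module of Mediator, Cdk19 was lower in every KO library (5.18 to 5.24 log2 CPM) than in every WT library (5.31 to 5.36), by -0.12 ± 0.05, without passing (limma adjusted p = 0.815). Its paralog Cdk8 differed by -0.26 ± 0.33 and their cyclin Ccnc by 0.15 ± 0.15, the largest positive value of the transcription class.

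**Figure D3:**
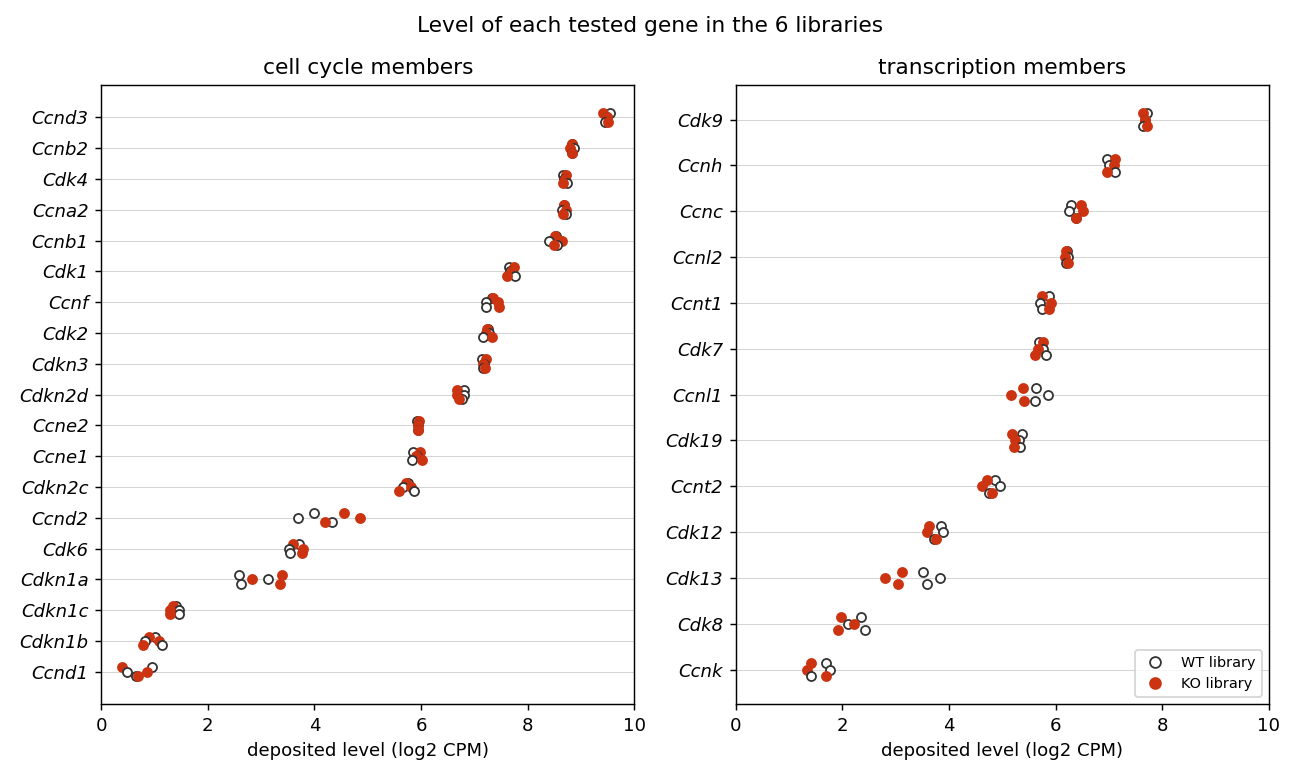
Deposited log2 CPM of the 19 tested cell cycle members (left) and the 13 transcription members (right) in each WT library (open circles) and KO library (filled circles), ordered by mean level, with pairs 1 to 3 from top to bottom at each gene. KO circles of Cdk13 (2.80 to 3.12) and Ccnl1 (5.17 to 5.41) lie to the left of the WT circles, while Ccnd2 and Cdkn1a show the widest spread of the cell cycle panel.

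None of the 4 tested kinases of the cell cycle passed 5% FDR. Cdk1, the mitotic kinase, lay at 7.64, 7.66 and 7.75 log2 CPM in WT and 7.73, 7.71 and 7.62 in KO, and differed by 0.00 ± 0.12. Its 95% interval ran from -0.15 to 0.15, or folds of 0.904 to 1.11. The width of such intervals rests mostly on other genes, with 2 degrees of freedom of the gene itself against 81.2 from the prior. Cdk2 differed by 0.03 ± 0.12 (interval -0.12 to 0.19) and Cdk4 by 0.01 ± 0.07 (interval -0.13 to 0.14). Cdk6, at a lower level, differed by 0.13 ± 0.20 (interval -0.15 to 0.42). In the annotation 31.2% of the Cdk4 exons overlap with Tspan31 on the other strand.

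The cyclins that drive S phase and mitosis gave similar values. Ccna2 differed by 0.00 ± 0.06, Ccnb1 by 0.06 ± 0.15 and Ccnb2 by -0.02 ± 0.04, with 95% intervals that stayed between -0.16 and 0.19. Ccne1 and Ccne2, the cyclins of the entry into S phase, differed by 0.10 ± 0.11 and 0.01 ± 0.02. Ccnf, the F-box cyclin that serves a ubiquitin ligase and not a CDK, lay at 7.33, 7.22 and 7.21 log2 CPM in WT and 7.34, 7.45 and 7.46 in KO. Each KO library lay above each WT library, the closest pair by 0.012, and the difference of 0.16 ± 0.13 did not pass (limma adjusted p = 0.523).

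The D-type cyclins differed from each other in their spread. Ccnd3 lay at 9.54, 9.48 and 9.45 log2 CPM in WT and 9.42, 9.48 and 9.51 in KO, and differed by -0.02 ± 0.09 (95% interval -0.15 to 0.11). Ccnd2, a D-type cyclin that antigen receptor signalling induces in B cells, lay at 3.98, 3.69 and 4.33 log2 CPM in WT and 4.55, 4.84 and 4.20 in KO. It was higher in KO in pairs 1 and 2, by 0.564 and 1.16, and lower in pair 3, by 0.130 on the log2 scale. The mean difference of 0.53 ± 0.65 did not pass (limma adjusted p = 0.696; 95% interval -0.16 to 1.22). Without pair 2 it was 0.22 with a limma adjusted p of 1, without pair 3 it was 0.86 with an adjusted p of 0.00536, and with low genes kept in the fit the adjusted p was 0.0143. Ccnd1, near 1 CPM, differed by -0.05 ± 0.49.

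The CDK inhibitors did not move together. Cdkn1a, a p53 target that blocks CDK2, lay at 2.58, 3.13 and 2.62 log2 CPM in WT and 3.38, 2.83 and 3.34 in KO. It was higher in KO in pairs 1 and 3, by 0.808 and 0.727, and lower in pair 2, with a mean of 0.41 ± 0.62 (limma adjusted p = 0.473). With single pairs left out it ran from 0.215 without pair 1 to 0.768 without pair 2, and none of these passed (lowest limma adjusted p = 0.100). Cdkn2d was lower in every KO library (6.66 to 6.70 log2 CPM) than in every WT library (6.78 to 6.81), by -0.12 ± 0.04 (adjusted p = 0.739). Cdkn1c was likewise lower in all, by -0.13 ± 0.06 at 2.72 CPM in WT (adjusted p = 0.944). Cdkn2c differed by -0.05 ± 0.22 and Cdkn1b by -0.06 ± 0.31, a gene near 2 CPM with an interval from -0.64 to 0.51.

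Of the 12 other CDKs and cyclins tested, 4 had an unadjusted p under 0.05 (33.3% against 8.82% of all genes), all higher in KO (4.16% of all genes), and none passed 5% FDR. Cdk14, a membrane-bound kinase that works with cyclin Y in Wnt signalling, lay at 3.01, 3.24 and 2.98 log2 CPM in WT and 3.48, 3.25 and 3.51 in KO, a difference of 0.34 ± 0.29 (limma adjusted p = 0.505). Cdk20 rested on low levels, 1.42 CPM in WT and 2.19 CPM in KO, and differed by 0.62 ± 0.49 (adjusted p = 0.528). In both genes pair 2 showed nearly no difference, 0.009 for Cdk14 and 0.054 for Cdk20. The G-type cyclins went together in size: Ccng1, a p53 target, differed by 0.16 ± 0.15 (adjusted p = 0.473) and Ccng2, a target of FOXO factors, by 0.16 ± 0.09 (adjusted p = 0.561). Ccng2 was higher in every KO library (7.17 to 7.25 log2 CPM) than in every WT library (7.02 to 7.10), whereas Ccng1 went the other way in pair 1 by 0.010 on the log2 scale. Ccni, the most abundant cyclin of this class at 91.2 CPM per kb, differed by 0.11 ± 0.06, and Cdk17, a kinase whose range of 16.6 to 19.1 CPM per kb overlapped with that of Cdk11b (15.5 to 17.5), by 0.03 ± 0.15. Of the members matched by name only none of 9 had an unadjusted p under 0.05. The widest spread was that of Cdk5rap1, an enzyme of tRNA modification, with paired differences of 0.718, -1.487 and -1.001. Its mean was -0.59 ± 1.16 (limma adjusted p = 0.894), and it was called without pair 1, at -1.24 (limma adjusted p = 2.9e-13). That fit rests on 2 pairs and leaves out the pair that went the other way. Its p-value therefore does not measure the spread of the gene over all pairs.

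Set side by side, the transcription class lay lower than the cell cycle class. Of 13 transcription members 9 had a negative fold change and the median was -0.12, while of 19 cell cycle members 7 were negative and the median was 0.005. Over all tested genes 48.6% were negative and the median was 0.004. The difference of the medians was -0.12 on the log2 scale, with -0.142 in pair 1, -0.098 in pair 2 and -0.022 in pair 3. The size of this difference came in part from a few genes: without Cdk13 it was -0.097, and without Cdk13 and Ccnl1 -0.072. Without pair 2 it was -0.042. At a mean log2 CPM of at least 3 the transcription median was -0.067 and the difference -0.077. Groups did not overlap for 3 transcription members, all lower (Cdk13, Ccnl1 and Cdk19), against 12.5% of all genes that were lower in this way, and for 3 cell cycle members, Ccnf higher and Cdkn2d and Cdkn1c lower, against 15.2% and 12.5%. These counts and medians carry no test, since the classes were set with results of these data known. The other CDKs and cyclins had a median of 0.08, with 3 of 12 negative, and the members matched by name only one of -0.04, with 8 of 9 negative.

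**Figure D4:**
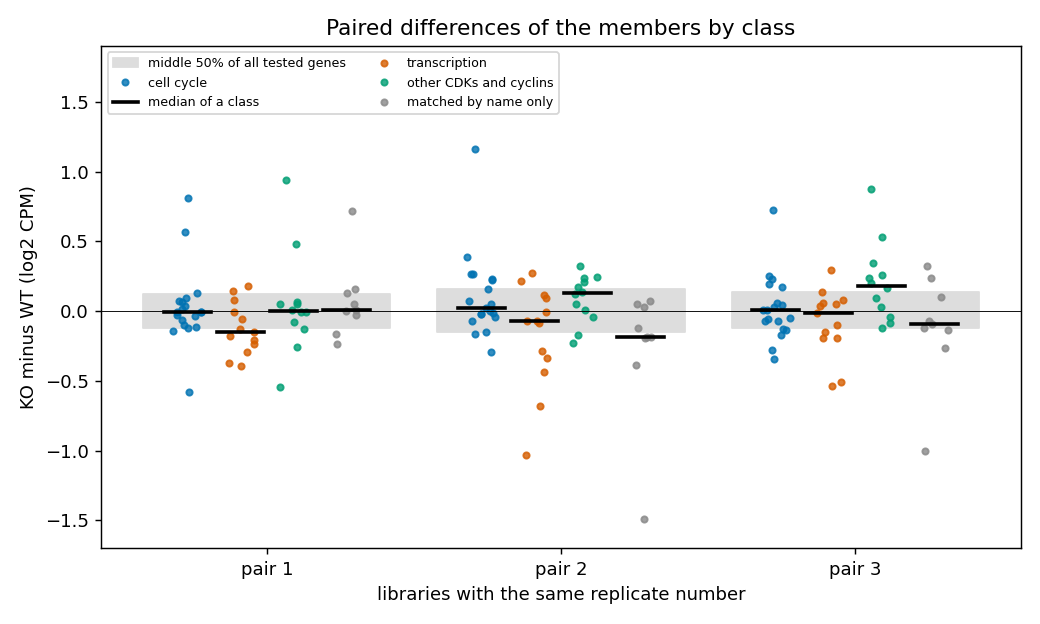
Paired differences (KO minus WT, log2 CPM) of the tested members in each of the 3 pairs, coloured by class, with the median of each class as a black bar and the middle 50% of all 10133 tested genes as a grey band. The transcription bar lies below 0 in all pairs (-0.149, -0.074 and -0.013) and the cell cycle bar between -0.007 and 0.024.

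Signs of RNA quality and transcript length moved between the pairs as well. The nuclear and non-coding RNA list (10 of its 12 genes in the tables, 6 tested) had medians of -0.168, -0.626 and 0.313 in pairs 1 to 3, and its summed level was 467 to 748 CPM in WT and 383 to 597 CPM in KO. That sum was carried by Malat1 at 393 CPM and Gas5 at 110 CPM. The list did not move together: 4 tested genes had a negative and 2 a positive fold change, and Rpph1 was higher in KO in every pair (1.013, 0.853 and 1.363). Pair 2, where the median of this list was lowest, was also the pair in which Cdk13 and Ccnl1 were lowest. The floxed gene Basp1 was lowest there too, with -2.216, -3.034 and -2.294 in pairs 1 to 3. Across 9528 genes with a length, which are not independent replicates, the Spearman correlation of the paired difference with merged exon length was -0.271, -0.0861 and 0.256 in pairs 1 to 3. The B cell markers summed to 7992 to 8304 CPM in WT and 7488 to 7781 CPM in KO, with no overlap, and the germinal centre markers to 4339 to 4496 and 4198 to 4351 CPM. The plasma cell list (3 of 5 at 1 CPM) summed to 2093 to 2305 CPM in WT and 1956 to 2142 CPM in KO, a sum carried by Igj at 1751 CPM. Its other genes had positive differences: Prdm1, near 1 CPM, was higher in every KO library than in every WT library, by 0.93 ± 0.56 (limma adjusted p = 0.256), as was Sdc1 by 0.53 ± 0.19 below 1 CPM, and Xbp1 differed by 0.05 ± 0.15. The stromal list was carried by Cr2 and Fcer2a, which B cells also express, and Pdpn and Col1a1 were at the shared low value in all. Erythroid and platelet markers (none of 8 at 1 CPM) summed to 1.15 to 2.43 CPM in WT and 2.13 to 6.55 CPM in KO, with the highest value in KO 2, and Hba-a1 and Hba-a2 were at the shared low value in all. Myeloid markers (7 in the tables, 1 at 1 CPM) summed to 3.02 to 4.82 CPM in WT and 1.87 to 2.97 CPM in KO. The part of RNA quality and of these cells in the differences of the members was not tested. Removing the trend over transcript length moved the fold changes of the 53 tested members by -0.021 to 0.040, and Cdk13 did not pass 5% FDR in that fit. The length correlations of pairs 1 and 3 had opposite signs and partly cancel in a mean. The size of this shift therefore cannot show how much length weighs in single pairs.

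The genes around the cell cycle engine were read from a list of 46 genes of the retinoblastoma, E2F, MuvB and p53 pathways, CDK-activating and CDK-inhibiting kinases and phosphatases, ubiquitin ligases of cyclins, mitotic kinases and checkpoint kinases. By limma 0 of 46 passed 5% FDR and 0 had an unadjusted p under 0.05, with 20 positive and 26 negative fold changes and a median of -0.03. The smallest p-values were those of Gsk3b, a kinase that marks D-type cyclins for degradation (-0.21 ± 0.15, adjusted p = 0.627), and Fbxw7, the receptor of the ligase for cyclin E (-0.17 ± 0.19, adjusted p = 0.665). They were followed by Fbxo5, an inhibitor of the anaphase-promoting complex (-0.12 ± 0.09), and Trp53, which encodes p53 (0.11 ± 0.10). Mki67, which encodes the proliferation marker Ki-67, had the largest difference of the list in size, at 8.09, 8.42 and 7.95 log2 CPM in WT and 7.69, 7.36 and 7.83 in KO. Its KO libraries lay below its WT libraries, and the value of -0.53 ± 0.48 did not pass (adjusted p = 0.763; 95% interval -1.49 to 0.43), except with non-robust moderation (adjusted p = 0.0427). Groups did not overlap for 12 of the 46, 6 in each direction, which is 26.1% against 27.7% of all genes.

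The genes around the transcription kinases were read from a list of 38 genes of TFIIH, the Mediator kinase module, the regulators of P-TEFb (the CDK9 complex), the super elongation complex and the elongation factors. Of these 0 passed 5% FDR by limma and 5 had an unadjusted p under 0.05, 4 lower and 1 higher in KO (13.2% against 8.82% of all genes). Of the 38, 29 had a negative fold change (76.3% against 48.6%), and the median was -0.07, with -0.068, -0.135 and 0.008 in pairs 1 to 3. Eaf2, a partner of ELL elongation factors, lay at the front with -0.27 ± 0.21 (adjusted p = 0.0923) and was called with low genes kept in the fit (adjusted p = 0.0459) and without pair 1 (0.00483), whereas without pair 2 it was -0.21 with an adjusted p of 1. Groups did not overlap for 12 of the 38 (31.6% against 27.7% of all genes), 10 lower and 2 higher, where 12.5% of all genes were lower and 15.2% higher in this way. Next in p-value were Med13l of the Mediator kinase module (-0.29 ± 0.32, adjusted p = 0.418), Larp7, which holds P-TEFb inactive on 7SK RNA (-0.18 ± 0.17, adjusted p = 0.439), and Gtf2h4, a subunit of TFIIH (0.23 ± 0.11, adjusted p = 0.473). Hexim1 and Hexim2, the inhibitors of CDK9, differed by -0.14 ± 0.08 and -0.32 ± 0.19 at levels under 5 CPM.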

How the data were processed

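Libraries had been made with an Illumina TruSeq mRNA kit, per the labels' protocols. Tools named per the submitters' processing notes are STAR 2.6.1a, Trim Galore 0.6.5 and FastQC 0.11.7, as well as featureCounts, Subread 2.0.1 and limma, with mm10 as the build; the notes used here give no settings and no strand. The deposited values are log2 CPM, read as such from their sums, with nearly equal distributions over libraries and with no difference left between replicate numbers, so the numbers cannot be checked for pairing. Read counts were not analysed here.

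KO was compared with WT with limma 3.58.1 in R 4.3.3 (genotype and replicate number, variance trend, robust moderation, two-sided, Benjamini-Hochberg at 5% FDR) on the 10133 genes with a mean log2 CPM of at least 0 and more than 1 value. Each gene's variance has 2 degrees of freedom of its own, and the prior adds a median of 81.2. With a pair left out 2 pairs remain, so the gene's own spread rests on still fewer. P-values of such fits do not take in the pair left out. Intervals are 95% and not adjusted for the number of genes. Fold changes are differences of log2 CPM, with no pseudocount added here. Python 3.11.15 made the summaries.

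The members and lists were chosen with earlier results of these data known. Named genes were the tested cell cycle and transcription members, other members with an unadjusted p under 0.05 or a high level of their kind, the 4 genes of each list with the smallest p, and Basp1; Cdk11b, Cdk5rap1, Mki67, the plasma cell genes and the Hexim genes were added after their values were seen. The alternatives were other filters, log2(CPM + 1), centring, variance models, no replicate block, each pair left out, other class members, and, added after seeing the data, removal of a length trend and a fit of the genes with a length only.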

Additional observations from a re-analysis of the deposited data

How the results depend on the processing

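The transcription median stayed negative and the difference between the classes kept its sign under all alternatives run. The variance models, the fit without the replicate block and the fit of the genes with a length only leave fold changes as they are. Those fits could therefore not move the medians. Keeping low genes could not move the transcription median, as all members of that class were already tested. Left-out pairs moved the cell cycle median between -0.004 and 0.045, the transcription median between -0.125 and -0.046 and their difference between -0.17 and -0.042, and at a mean log2 CPM of at least 3 the last 2 were -0.067 and -0.077. The count of members past 5% FDR was 1, against 3 with no filter on low values (Cdk13, Ccnl1 and Ccnd2), 0 with no variance trend, 0 with non-robust moderation, 0 with the length trend removed, and 0 to 3 with a pair left out. By limma, members with an unadjusted p under 0.05 numbered 4, 9 and 7 in the fits with no variance trend, non-robust moderation and no length trend, and 4 without pair 2. Over all genes the count was 27 (17 higher, 10 lower), against 95 with no filter (42 higher, 53 lower), 28 at a mean log2 CPM of at least 3 (13 higher, 15 lower), 0 with no variance trend (640 at an unadjusted p under 0.05), 12 with non-robust moderation, 3 with the length trend removed, a fit that takes only the 9528 genes with a length (24 with those genes and no trend removed, Cdk13 among them), and 11 to 136 with a pair left out (leaving out pair 1 gave 27 higher and 109 lower, pair 2 gave 4 and 7, pair 3 gave 28 and 71). Basp1 had an adjusted p of 0.150 with no variance trend.

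Without the replicate block 142 genes and 0 members passed, with 13 members at an unadjusted p under 0.05, and Cdk13 had an adjusted p of 0.0561; that fit counts degrees of freedom that the removal of differences between numbers had used. Cdk13 had an adjusted p of 0.702 with no variance trend, 0.135 with non-robust moderation and 0.0773 without pair 3. The list around the cell cycle engine had 1 call with non-robust moderation and 0 to 1 with a pair left out, and the list around the transcription kinases 1 with no filter and 0 to 1 with a pair left out. The cause of these shifts was not tested.

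With the length trend removed Ccna2 went to -0.010 and Ccne2 to -0.011. With a pair left out the sign of 15 of 52 named genes changed, none of them called: Cdk1 ran from -0.043 to 0.073, Cdk2 from -0.036 to 0.072, Cdk4 from -0.025 to 0.045, Cdk9 from -0.034 to 0.035, Cdk17 from -0.061 to 0.078, Ccna2 from -0.029 to 0.032, Ccnb1 from -0.032 to 0.113, Ccnd1 from -0.27 to 0.21, Ccnd3 from -0.061 to 0.030, Ccne2 from -0.002 to 0.021, Cdkn1b from -0.23 to 0.075, Cdkn2c from -0.16 to 0.059, Ccnk from -0.36 to 0.0005, Ccnl2 from -0.038 to 0.015 and Ccnh from -0.027 to 0.12. Read depth is unknown, and members near 1 CPM had intervals over 1 wide on the log2 scale.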
